A study of Mus musculus with 2 samples.

Results

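The erythroid cells of the newborn mouse kidney were 104 of 9735 cells in 2 single-cell RNA sequencing libraries. A cell was a barcode with at least 3000 unique molecular identifiers (UMIs, counts of single captured RNA molecules), at least 500 detected genes and at most 20% mitochondrial UMIs. An erythroid cell was a cell in which Hba-a1, Hba-a2, Hbb-bs, Hbb-bt, Hbb-y, Hbb-bh1 and Hba-x, the genes of the alpha-type and beta-type globin chains, together gave at least 20% of its UMIs, so that the cells were chosen by their globin RNA. Both libraries came from kidneys of mice at postnatal day 0 and carry the genotype label Rbpj c/+ ; Foxd1cre/+, which is read here as 1 conditional allele of Rbpj, the DNA-binding partner of Notch, with Cre recombinase from the Foxd1 gene, a gene of stromal progenitors. All cells share that genotype, and libraries of other genotypes were not analysed here, so there is no comparison of genotypes. The labels do not say whether the libraries are separate animals, litters or pools. Every p-value rests on these 2 libraries alone, on how far differences between kinds of cell varied between them. Whether any erythroid cell had recombined Rbpj was not measured.

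Red cells arise from progenitors in the fetal liver, spleen and bone marrow under the hormone erythropoietin, which the kidney itself makes. As the precursor matures, the transcription factors Gata1 and Klf1 switch on globin, haem synthesis and membrane skeleton genes, the nucleus is expelled, and the resulting reticulocyte clears its mitochondria, ribosomes and remaining RNA. Reticulocytes in blood therefore hold few kinds of RNA, most of it globin.

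The globin genes chose the cells, and the promoters of 2 of them are shown with that of Alas2, the red cell enzyme of haem synthesis that is described below, because all 3 genes were high in the same cells. Each sequence is 130 bases that end just before the gene start of GENCODE M21. They were taken from RefSeq for GRCm38.p6 and cut so that no base lies inside the gene in either annotation. The RefSeq starts lie further downstream, at 32296492 for Hba-a2, 103813923 for Hbb-bt and 150547417 for Alas2. Capitals mark CACCC, a motif bound by Klf1, and GATAA, a motif bound by Gata1, on either strand, so that they also mark GGGTG and TTATC. Hba-a2 lies at chr11:32296359-32296488 on the plus strand, Hbb-bt at chr7:103813997-103814126 on the minus strand and Alas2 at chrX:150547245-150547374 on the plus strand.
Hba-a2: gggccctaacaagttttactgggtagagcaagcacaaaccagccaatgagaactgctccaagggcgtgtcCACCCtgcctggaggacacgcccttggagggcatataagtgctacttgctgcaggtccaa
Hbb-bt: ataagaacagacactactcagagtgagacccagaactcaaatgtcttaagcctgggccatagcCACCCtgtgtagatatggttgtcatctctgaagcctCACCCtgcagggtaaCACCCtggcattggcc
Alas2: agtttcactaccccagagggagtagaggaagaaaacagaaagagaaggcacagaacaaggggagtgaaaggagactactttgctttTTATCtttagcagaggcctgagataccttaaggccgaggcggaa
Both globin windows hold CACCC and the Alas2 window holds GATAA on the minus strand. Over the 250 bases before the start of all 32851 promoters in the table, CACCC occurred in 52.0% and GATAA in 22.6% on either strand, so a match in 1 promoter is common. A match is a stretch of letters and not a measured binding site.

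Erythroid cells were few in both libraries. They numbered 35 of 5529 cells in replicate 1, or 0.633% (exact 95% interval 0.441 to 0.879), and 69 of 4206 cells in replicate 2, or 1.64% (1.28 to 2.07), with intervals that cover counting error only. The higher share in replicate 2 lies outside the counting interval of replicate 1, and with 1 library on each side the difference was not tested. The shares depended on the gene limit. With at least 200 genes, an alternative chosen after seeing the data, they were 4.19% and 5.07%. The libraries held 200331687 and 173166168 UMIs in all, of which the erythroid cells held 307548 and 781934. Of 6 cell barcodes found in both libraries, 1 was an erythroid cell in a single library and none in both.

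Erythroid cells had fewer UMIs than the remaining cells and far fewer genes. The median erythroid cell had 7842 UMIs and 598 genes in replicate 1, with a range of 502 to 4994 genes, and 11604 UMIs and 615 genes in replicate 2, with a range of 505 to 4772 genes. The remaining cells, 5354 and 4080 cells with under 5% globin UMIs and without high complement C1q RNA, had medians of 15173 and 20244 UMIs and of 4508 and 5323 genes. Globin, which chose the cells, took a median of 68.2% of UMIs in replicate 1 and 82.9% in replicate 2, and with it out of the total a median erythroid cell kept 1832 and 1916 UMIs. In the remaining cells the median globin share was 0.00855% and 0.00786%. Barcodes with 100 UMIs or fewer, which stand for RNA free in the suspension, had 0.599% and 1.57%.

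Few cells lay near the 20% limit of the rule. Just inside it, at 20 to 25% globin, lay 2 cells in replicate 1 and 3 in replicate 2, at 22.0 to 24.4% and 20.8 to 23.1%, with medians of 4020 and 4544 genes. Just outside it, at 15 to 20%, lay 4 and 3 cells, at 15.5 to 19.8% and 17.3 to 19.3%, with medians of 3074 and 6107 genes. At the gene limit of 500 the cells on both sides were rich in globin: 9 and 14 erythroid cells had 500 to 550 genes and at least 53.0% and 67.1% globin, and 15 and 24 barcodes with 450 to 499 genes had at least 64.0% and 72.4%.

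**Figure D1:**
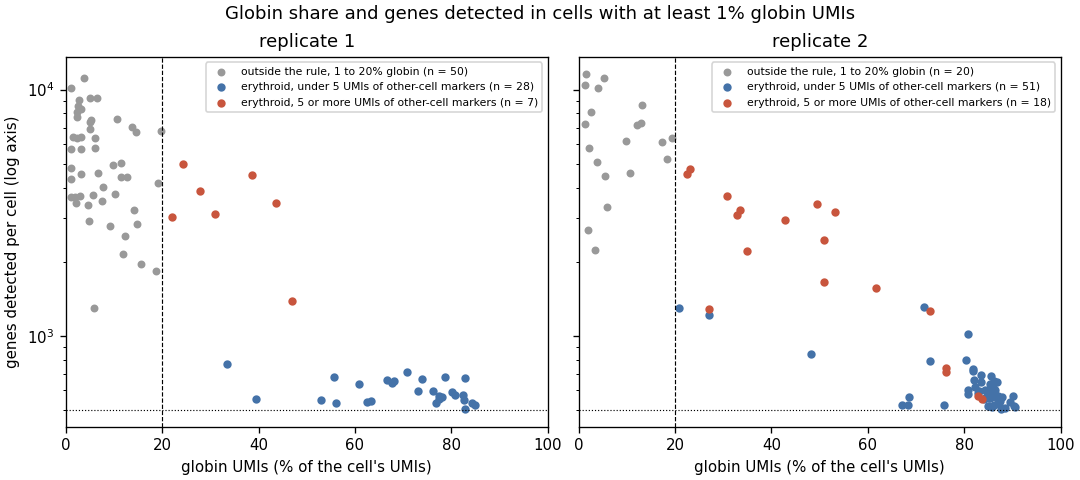
Genes detected per cell (log axis) against the globin share of its UMIs (percent), for cells with at least 1% globin UMIs in each library; each point is 1 cell, the dashed line is the 20% limit, the dotted line the limit of 500 genes, and red marks the 7 and 18 erythroid cells with at least 5 UMIs of markers of other cells. The blue erythroid points of replicate 1 lie between 502 and 768 genes, and most red points lie higher and toward the left.

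About 1 in 4 erythroid cells also carried at least 5 UMIs of markers of other kinds of cell. Over 62 markers of 10 other kinds of cell (nephron progenitors, epithelium, podocytes, stroma, mural cells, endothelium, macrophages, neutrophils, megakaryocytes, and lymphoid and mast cells), 7 of 35 cells in replicate 1, or 20% (exact 95% interval 8.44 to 36.9), and 18 of 69 in replicate 2, or 26.1% (16.3 to 38.1), had at least 5 UMIs. These 25 cells were led by endothelial markers such as Pecam1 and Cdh5 in 8, by epithelial markers in 5, by stromal markers in 5, by mural markers in 3, and by nephron progenitor and neutrophil markers in 2 each. None was led by macrophage, podocyte, megakaryocyte or lymphoid markers. Their median globin share was 31.0% and 50.1%, against 75.0% and 85.0% in the other 28 and 51 erythroid cells.

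Most of the marker-carrying cells were also gene-rich. Of 7 erythroid cells with over 1000 genes in replicate 1 all 7 were among them, and 14 of 18 in replicate 2. Because they had more non-globin RNA, these 25 cells held 59.1% and 56.8% of the non-globin UMIs of all erythroid cells. The limit of 5 UMIs was not scaled to depth, so a cell with more non-globin UMIs reaches it more easily. The part of depth in this link was not tested. The source of the other-cell UMIs in these barcodes, such as a pair of cells or a cell with red cell RNA around it, was not tested. Scrublet, a doublet caller, put 3 erythroid cells in each library among its 245 and 142 highest scores. The main counts below are therefore given for all 104 cells and, as an addition made after the data were seen, for the 79 cells with under 5 such UMIs, called the 79 cells from here on.

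Adult globins made up nearly all globin RNA. In the erythroid cells of replicate 1, Hbb-bs had 89679 UMIs, Hba-a1 36500, Hbb-bt 29981 and Hba-a2 25092. In replicate 2 they had 295653, 102791, 92166 and 78247 UMIs in that order. Each of these 4 genes had UMIs in every one of the 35 and 69 cells, and these values describe the rule and test nothing. Hbb-bs and Hbb-bt encode the adult beta chains, on chromosome 7 (103826534 to 103828096 and 103812524 to 103813996, minus strand), and Hba-a1 and Hba-a2 the adult alpha chains, on chromosome 11 (32283511 to 32284465 and 32296489 to 32297298, plus strand), in GENCODE M21 of GRCm38.

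Beta-type RNA exceeded alpha-type RNA. Beta-type genes gave 66.0% of globin UMIs in replicate 1 and 68.2% in replicate 2, which is 1.94 and 2.14 beta-type UMIs for each alpha-type UMI. Single cells ranged from 57.0 to 75.0% and from 47.8 to 79.3%. In the 79 cells the shares were 65.2% and 68.6%, and in cells with 5 to 20% globin UMIs they were 70.3% and 70.1%. UMIs were counted from 3' ends without a correction for capture, so these are RNA counts and not protein ratios.

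Of the adult beta RNA, the share from Hbb-bt varied widely from cell to cell. It gave 25.1% of Hbb-bs and Hbb-bt UMIs together in replicate 1 and 23.8% in replicate 2, with single cells from 4.24 to 35.5% and from 1.75 to 33.8%. Hba-a2 gave 40.7% and 43.2% of Hba-a1 and Hba-a2 UMIs, with single cells from 31.3 to 56.9% and from 33.2 to 48.5%. The split of the alpha genes is uncertain, because their transcripts were identical at 537 of 538 aligned bases and a read cannot usually be given to 1 of them. The beta transcripts were identical at 92.7% of aligned bases and at 87.5% over the last 300 bases, the part that these libraries read, which leaves more bases to tell them apart.

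**Figure D2:**
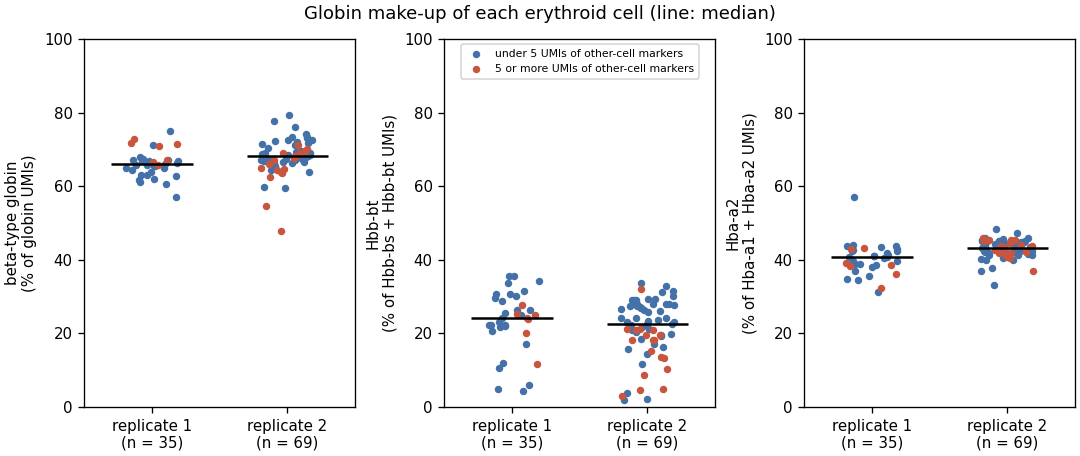
Share of beta-type globin, of Hbb-bt among adult beta globin and of Hba-a2 among adult alpha globin UMIs (percent) in each erythroid cell, by library; each point is 1 cell, the line is the median, and red marks cells with at least 5 UMIs of other-cell markers. The Hbb-bt panel spreads from 1.75 to 35.5%, with a few cells far below the medians of 24.1% and 22.4%.

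Embryonic globins were at the limit of detection. Hbb-y, the embryonic beta-type chain, had 1 UMI in replicate 1 and 2 in replicate 2, Hba-x, the embryonic alpha-type chain, had 0 and 1, and Hbb-bh1 had 0 in both. These counts stand against 181253 and 568860 globin UMIs, where a count of 0 allows up to 0.00166% and 0.000527%. Outside these cells, Hba-x had 166 UMIs in 7 of the remaining cells of replicate 1, of which 1 cell held 158, and 3 UMIs in 3 of the remaining cells of replicate 2. Among the cells with 5 to 20% globin it had 20 UMIs in 1 cell and 1 UMI in 1 cell.

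Outside the globins, the erythroid cells were compared with the remaining cells in counts summed per library and kind of cell, with globin genes taken out of the table and of the totals. Red cell genes were among those that were higher. Over 9 lists of red cell genes, 66 of 105 tested genes were higher and none was lower, and the mitochondrial iron carrier Slc25a37, the anion exchanger Slc4a1 and the haem enzyme Alas2 were among them. The 105 are those of 120 genes found that passed the filter on low counts. A gene could pass that filter through the erythroid sums alone, so list counts here and below favour genes that were high in the erythroid cells. Over all genes, 384 of 10996 passed the threshold (adjusted p under 0.05 in edgeR's quasi-likelihood test with Benjamini-Hochberg adjustment), which is 3.49%: 337 higher (3.06%) and 47 lower (0.427%). The median log2 fold change over all tested genes was -0.22, and -0.10 with DESeq2 size factors in place of TMM, so values near 0 depend on the scaling.

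Without the 25 marker-carrying cells the counts moved by over 1.5 times. Then 859 of 10917 genes passed (7.87%), 477 higher (4.37%) and 382 lower (3.5%), and 305 genes were called in both fits, 304 of them in the same direction. The median log2 fold change over all tested genes was then -1.24, or -0.42 with genes without UMIs set at their bound. Of the red cell lists 72 of 105 tested genes were higher and none was lower. Of the 10 lists of other cells, 1 of 48 tested genes was higher in all 104 cells, the neutrophil gene S100a8. The 79 cells were chosen on these markers, so no count over them is given for those cells. The S100a8 UMIs were 16 and 94, of which 1 cell in each library held 100% and 95.7%.

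Levels below are counts per 1000000 non-globin UMIs (CPM), given for replicate 1 and then replicate 2, and fold changes are log2 values from the edgeR fit against the remaining cells with their standard error (SE). Levels of different genes are not set against each other, since capture differs between genes.

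The first and last enzymes of haem synthesis were both higher. Alas2, which starts haem synthesis in red cells (chromosome X, 150547375 to 150570638), had 2732 and 6275 CPM against 2.26 and 2.51 CPM in the remaining cells, which is 11.18 higher on the log2 scale (SE 0.48, edgeR adjusted p 2.8e-05). Fech, which inserts iron into the ring, had 903 and 2633 CPM against 24.7 and 26.6 CPM (6.43, SE 0.46, edgeR adjusted p 0.000196). The summed levels of Alas2 and Fech were higher in the erythroid cells in each library. In all, 7 of 14 tested genes of the list were higher, with a list median of 1.86, among them Alad at 1.76, Urod at 3.98, the haem-binding protein Hebp1 at 2.57 and the iron-sulphur cluster protein Glrx5 at 3.30.

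Alas1, the form of the first enzyme used by other tissues, was near the limit of detection, with 1 and 3 UMIs against 24.4 and 30.7 CPM in the remaining cells, and was not called (-0.85, SE 0.57, edgeR adjusted p 0.505). Cpox, at 63.3 and 131 CPM, was not called in all cells (1.96, edgeR adjusted p 0.0940) and was called in the 79 cells (3.25, edgeR adjusted p 0.00321). After each cell was thinned to 1000 non-globin UMIs, Alas2 was found in 96.4% of 28 and 95.8% of 48 of the 79 cells, and in 0.168% and 0.221% of the remaining cells. Unthinned, it was found in 100% of 28 and 98.0% of 51 cells, and in 4.73% and 6.45% of the remaining cells.

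Iron carriage and storage genes were higher in 3 of 9 tested, with a list median of 0.33. Slc25a37, which brings iron into the mitochondrion, had 918 and 1675 CPM against 11.4 and 10.3 CPM (7.31, SE 0.48, edgeR adjusted p 0.000141). The ferritin chains Ftl1 at 13112 and 12550 CPM and Fth1 at 7799 and 13681 CPM were higher by 3.29 (SE 0.24) and 3.34 (SE 0.23), with edgeR adjusted p of 0.000209 and 0.000182. Ferritin has many processed pseudogenes, and counts could be split with them. Tfrc, the transferrin receptor of iron-importing precursors, had 10 and 19 UMIs and was not called (0.92, SE 0.29, edgeR adjusted p 0.148). All of these UMIs lay in the 79 cells, where it was called (2.38, edgeR adjusted p 0.00146).

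Membrane and skeleton genes rose in 15 of 20 tested, with a list median of 4.78. Slc4a1, the band 3 anion exchanger (chromosome 11, 102348824 to 102366203), had 578 and 760 CPM against 4.75 and 5.34 CPM (7.47, SE 0.43, edgeR adjusted p 6.9e-05). Epb41, which ties spectrin to actin and is used in many tissues, had 1354 and 1258 CPM against 105 and 108 CPM (4.02, SE 0.30, edgeR adjusted p 0.000211). The summed level of both genes was higher in the erythroid cells in each library.

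Several other members of this group were sparse. Epb42, protein 4.2 of the membrane skeleton, had 8 and 25 UMIs (8.06), ankyrin Ank1 7 and 14 UMIs (5.54), the Rh proteins Rhag 10 and 7 UMIs (10.45) and Rhd 9 and 59 UMIs (8.10), and Ermap 3 and 10 UMIs (8.35), all past the threshold. Cd24a, a surface protein also made by epithelial and progenitor cells, had 1362 and 3356 CPM against 236 and 220 CPM (3.57, SE 0.40, edgeR adjusted p 0.00181). Gypc, Add2, Dmtn, Tmod1 and the water channel Aqp1 were not called. Aqp1 stood at 2.20 in all cells and 0.62 in the 79 cells, while Add2 and Tmod1 were called in the 79 cells.

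Transcription factors of the red cell lineage passed the threshold in 8 of 15 tested, at low counts. Gata1 had 5 and 4 UMIs (8.20, edgeR adjusted p 0.0269), Klf1 6 and 8 (5.94, edgeR adjusted p 0.0182), Nfe2 3 and 8 (5.90) and Tal1 3 and 7 (2.86). The best sampled genes of this list were Klf3 at 206 and 169 CPM (1.59, SE 0.22), E2f2 at 150 and 188 CPM (4.95, SE 0.37) and the Gata1 partner Lmo2 at 135 and 216 CPM (3.03, SE 0.43). Zfpm1, the Gata1 cofactor Fog1, was called in all cells (2.12) and not in the 79 cells. Gfi1b had 0 UMIs in both libraries, which allows up to 23.8 and 14.1 CPM, above the 0.0555 and 0 CPM of the remaining cells, so a difference was not detectable at this depth.

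Of erythropoietin signalling genes, 2 of 7 tested were higher, both downstream of the receptor, and the list median was 0.15. Pim1, a survival kinase, had 380 and 258 CPM against 19.0 and 24.2 CPM (4.28, SE 0.36, edgeR adjusted p 0.000414), and Bcl2l1, which encodes Bcl-xL, had 182 and 324 CPM against 60.8 and 52.2 CPM (2.64, SE 0.38, edgeR adjusted p 0.00639). The receptor gene Epor had 4 and 1 UMIs, all of them in marker-carrying cells, and 0 in the 79 cells. Socs2 had 3 and 8 UMIs and was not called (-0.48, edgeR adjusted p 0.606).

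None of 5 tested genes of early progenitors was called, with a list median of -0.29. The list level was 135 and 188 CPM against 121 and 109 CPM in the remaining cells. Cd34 had 10 and 26 UMIs (1.59, SE 0.42, edgeR adjusted p 0.0940), and none of them lay in the 79 cells. All of them lay in 2 and 4 of the marker-carrying cells, which the 79 cells leave out. Kit, the stem cell factor receptor, had 1 and 2 UMIs, and Myb had 0 and 0. In the 79 cells the whole list had 0 UMIs in replicate 1, which allows up to 58.0 CPM, and 3 in replicate 2. Spi1, a myeloid factor, had 4 and 10 UMIs with 1 cell holding 100% and 90% of them, and lay close to the threshold (3.92, SE 0.87, edgeR adjusted p 0.0542). With DESeq2 size factors it was called (4.04, edgeR adjusted p 0.0458), as it was in 6 other alternatives, and in the 79 cells it was not (1.57, edgeR adjusted p 0.689).

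**Figure D3:**
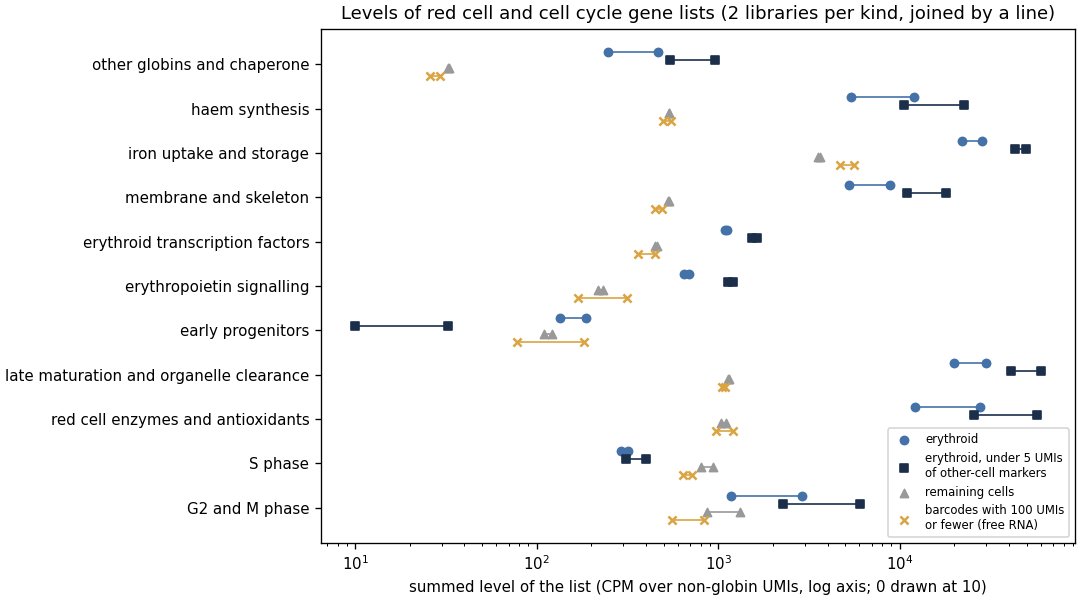
Summed level of 9 red cell lists and 2 cell cycle lists (CPM over non-globin UMIs, log axis) in all erythroid cells, in the 79 cells with under 5 UMIs of other-cell markers, in the remaining cells and in barcodes with 100 UMIs or fewer; each point is 1 library, lines join the 2 libraries, and a level of 0 is drawn at 10. Late maturation lies at 19795 and 30018 CPM in all erythroid cells against 1149 and 1127 CPM in the remaining cells.

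Late maturation, the list with the most tested genes, had 20 of 23 tested genes higher and a list median of 3.89. Its genes include the ubiquitin and autophagy factors that dismantle the reticulocyte. Mkrn1, a ubiquitin ligase (chromosome 6, 39397804 to 39420462), had 8718 and 11559 CPM against 43.6 and 44.2 CPM (8.25, SE 0.23, edgeR adjusted p 3.7e-06). Bnip3l, the receptor that marks mitochondria for removal, had 1180 and 2483 CPM against 164 and 154 CPM (3.89, SE 0.34, edgeR adjusted p 0.000433).

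Further genes of the group were rare outside the erythroid cells. The RNA exonuclease Isg20 had 784 and 1173 CPM against 0.521 and 0.355 CPM (11.56), the poly(A) polymerase Tent5c 966 and 1314 CPM against 4.53 and 4.18 CPM (8.45), and the conjugating enzyme Ube2l6 396 and 573 CPM against 2.24 and 2.72 CPM (8.03). Trim10 had 24 and 51 UMIs in the erythroid cells and only 3 and 1 in all the remaining cells, so that its fold rests on a handful of UMIs. Tspo2, a red cell relative of the mitochondrial translocator protein and outside the lists, had 459 and 784 CPM against 0.285 and 0.174 CPM (11.74). Autophagy genes Map1lc3b at 3.22 and Gabarapl2 at 4.28 were higher, while the autophagy kinase Ulk1 (0.80, edgeR adjusted p 0.511), Fbxo7 and Mxi1 were not called. Alox15, a lipoxygenase of maturing reticulocytes, had 0 UMIs in both libraries.

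Enzymes and antioxidants of the red cell were higher in 8 of 9 tested genes, with a list median of 4.70. Bpgm, which makes the 2,3-bisphosphoglycerate that loosens oxygen from haemoglobin (chromosome 6, 34476207 to 34505613), had 3389 and 3980 CPM against 31.05 and 30.1 CPM (7.33, SE 0.31, edgeR adjusted p 2.8e-05). Gpx1, a glutathione peroxidase, had 2668 and 9480 CPM against 173 and 198 CPM (5.31, SE 0.49, edgeR adjusted p 0.000592), and Prdx2, a peroxiredoxin, had 2510 and 7641 CPM against 500.2 and 531 CPM (3.58, SE 0.39, edgeR adjusted p 0.0015). Both stood well higher in replicate 2 than in replicate 1, and Bpgm differed less between the libraries. Sod1 was the member not called (0.76, edgeR adjusted p 0.181).

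Car2, carbonic anhydrase, which epithelium also makes, was higher by 4.70, Blvrb by 6.41, catalase Cat by 2.52, Hagh by 2.89 and Hemgn by 8.64, the last from 2 and 10 UMIs. Car1, the other red cell carbonic anhydrase, had 0 UMIs in both libraries, which allows up to 23.8 and 14.1 CPM. The theta-type globins Hbq1a and Hbq1b, which the rule did not use, had 10 and 12 UMIs and 9 and 56 UMIs in the erythroid cells, against 2 and 3 UMIs and 9 and 14 UMIs in all the remaining cells. Eif2ak1, the haem-regulated kinase that slows globin translation, had 95.02 and 145 CPM against 32.4 and 32.5 CPM (2.36, SE 0.33, edgeR adjusted p 0.0055). Ahsp, the alpha globin chaperone, was not analysed here.

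**Figure D4:**
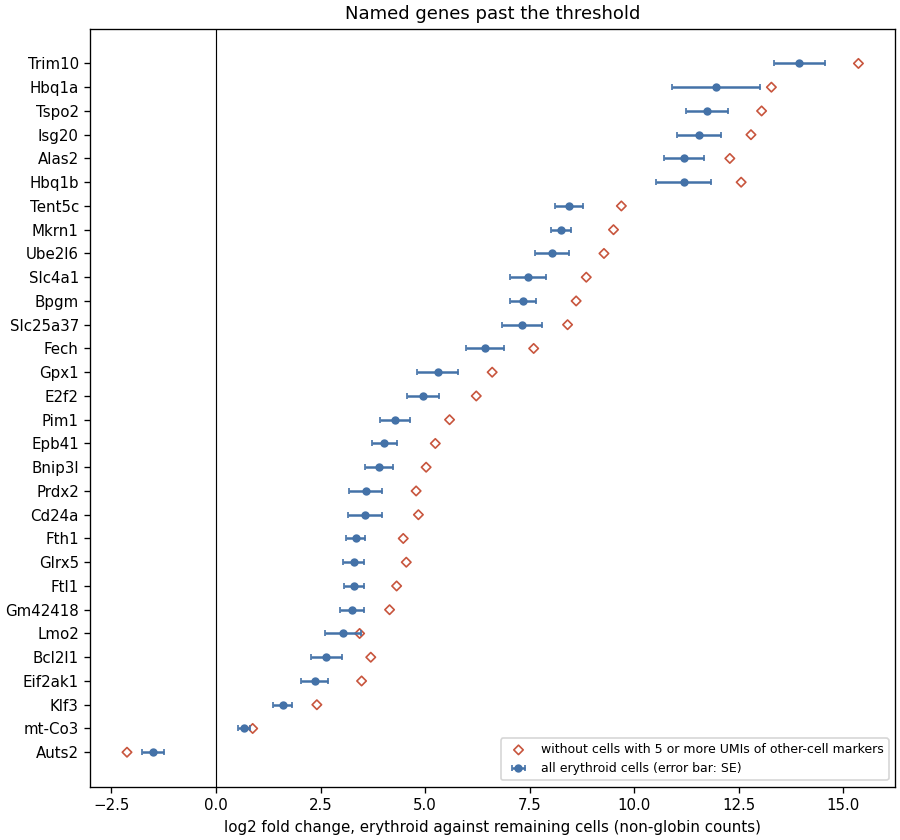
Log2 fold change of the 30 named genes past the threshold, erythroid against remaining cells; filled points are all 104 cells with SE as the error bar, and open points are the 79 cells with under 5 UMIs of other-cell markers. All but Auts2 lie above 0, and the open points lie beyond the filled ones for most genes.

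Of 18 S phase genes 0 were higher and 2 lower in all cells, Mcm4 and Hells, from 0 and 1 and from 0 and 2 UMIs, and neither was called in the 79 cells. The S phase list had a median of -1.29, against -0.22 over all genes. Of 15 G2 and M phase genes only Ube2c, a ubiquitin conjugating enzyme of mitotic exit, was higher. It had 871 and 2098 CPM against 125 and 73.1 CPM (4.21, SE 0.48, edgeR adjusted p 0.00184), and 1 cell of replicate 2 held 108 of the 447 UMIs there. In the 79 cells Ube2c was found in 17 of 28 and 43 of 51 cells, and Mki67 (1.89, edgeR adjusted p 0.0377) and Ccnb1 (2.71, edgeR adjusted p 0.0422) were called as well. Top2a was not called in either set, at -1.83 (edgeR adjusted p 0.0769) in all cells and -1.15 (edgeR adjusted p 0.172) in the 79 cells.

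Genes of the nucleus and of the mitochondrion were set beside these. Xist, a nuclear RNA of the inactive X chromosome, had 475 and 277 CPM in all erythroid cells against 879 and 810 CPM in the remaining cells, which did not pass (-0.80, SE 0.21, edgeR adjusted p 0.0906). In the 79 cells it had 58.0 and 65.2 CPM from 3 and 6 UMIs, and it was called lower (-3.12, edgeR adjusted p 0.000186). The nuclear RNA Kcnq1ot1 likewise went from -1.07 (edgeR adjusted p 0.0550) to -3.25 (edgeR adjusted p 0.00282). The nuclear RNA Malat1 had 27087 and 9523 CPM in the 79 cells against 12977 and 14632 CPM in the remaining cells and was not called in either set (0.44 and 0.88, edgeR adjusted p 0.361 and 0.0995). These RNAs were chosen after their values were seen, and counts of 3 and 6 give wide counting error.

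Mitochondrial genes gave 7.34% and 6.29% of the erythroid cells' non-globin UMIs, and 6.43% and 6.37% in the remaining cells. The erythroid share was higher in replicate 1 and slightly lower in replicate 2. The gene mt-Co3, at 13302 and 11954 CPM against 10382 and 10747 CPM, was just past the threshold (0.66, SE 0.14, edgeR adjusted p 0.0471), which 6 alternatives lost. Of genes that fell with at least 20 UMIs in both kinds of cell and both libraries, the only one was Auts2, a neuronal and chromatin regulator, at 269 and 150 CPM against 839 and 698 CPM (-1.51, SE 0.27, edgeR adjusted p 0.0191), a call lost at 10% globin, at 30% globin and without the highest Scrublet scores. Gm42418, a gene model that overlaps a ribosomal RNA repeat, took 83835 and 38888 CPM against 12687 and 5166 CPM (3.25, SE 0.28, edgeR adjusted p 0.000433). It had 48919 and 24242 CPM in the barcodes with 100 UMIs or fewer, and its call was lost without the library as a block (edgeR adjusted p 0.0879).

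C1q-high cells, 112 and 46 cells with macrophage complement genes at 0.1% of UMIs or more, are the other blood-derived kind used here. Against them 1940 of 10993 genes passed (17.6%), 1020 higher (9.28%) and 920 lower (8.37%). In the 79 cells 1499 passed (13.7%), 546 higher (5.0%) and 953 lower (8.73%). Of the red cell lists 71 of 105 tested genes were higher in the erythroid cells and 3 lower, and 75 and 2 in the 79 cells. The macrophage genes that had not chosen the C1q-high cells were lower, 5 of 5 in all 104 cells. The 79 cells were chosen on these genes among others, so no count of them is given there. The difference from macrophages was smaller for ferritin, with Ftl1 at 13112 and 12550 CPM against 7919 and 7679 CPM (0.98, SE 0.22, edgeR adjusted p 0.0211) and Fth1 at 1.20 (SE 0.22, edgeR adjusted p 0.00882).

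A gene of iron export and a gene of haem breakdown were lower in the erythroid cells than in the C1q-high cells. Slc40a1, the iron exporter ferroportin, had 47.5 and 14.1 CPM in the erythroid cells, from 6 and 3 UMIs, against 660 and 399 CPM (-3.98, SE 0.41, edgeR adjusted p 0.0008). Hmox1, which opens the haem ring and lies outside the lists, had 7.92 and 51.6 CPM against 652 and 179 CPM (-3.08, SE 0.84, edgeR adjusted p 0.0398). Hmox1 was not called in the 79 cells (-1.89, edgeR adjusted p 0.148). Endothelial markers were higher than in C1q-high cells in 6 of 6 tested in all 104 cells, where that list stood at 752 and 1089 CPM against 89.9 and 27.7 CPM. No such count is given for the 79 cells, which were chosen on these markers and where the list stood at 116 and 43.5 CPM. Against the remaining cells 0 of the 6 tested endothelial markers were called higher or lower in all 104 cells.

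Cells with 5 to 20% globin UMIs, 28 and 11 cells just outside the rule, were compared last. Against them 254 of 10996 genes passed (2.31%), 222 higher (2.02%) and 32 lower (0.291%). Among the 79 cells' tests 1109 passed (10.2%), 483 higher (4.42%) and 626 lower (5.73%). Red cell genes were higher in 49 of 105 tested in all cells and in 71 of 105 in the 79 cells, where 1 was lower. Alas2 had 225 and 295 CPM in these cells and was higher in the erythroid cells by 4.42 (SE 0.36, edgeR adjusted p 0.00113). Mkrn1 had 444 and 531 CPM there (4.75, SE 0.20, edgeR adjusted p 9.3e-05). Endothelial markers stood at 2241 and 3212 CPM in the cells with 5 to 20% globin, against 752 and 1089 CPM in all erythroid cells, and their part in these differences was not tested.

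Among the erythroid cells themselves, haem synthesis, late maturation and enzyme RNA stood higher in each bin of higher globin share, in both libraries. Haem synthesis genes stood at 2086 CPM in the 9 cells of replicate 1 with 20 to 50% globin, at 10359 CPM in 18 cells with 50 to 80% and at 12771 CPM in 8 cells with 80% or more. In replicate 2 they stood at 2072, 9240 and 25465 CPM in 12, 13 and 44 cells. Enzymes and antioxidants went from 3104 to 34340 CPM and from 2484 to 63968 CPM between the lowest and the highest bin. That order was not kept by membrane and skeleton genes in replicate 1, at 1458, 12159 and 10824 CPM, by erythropoietin signalling genes in replicate 1, at 415, 1328 and 701 CPM, or by transcription factors in either library, at 792, 1859 and 857 CPM and at 856, 1348 and 1326 CPM. The globin share is the value that chose the cells, so these levels are a description. Markers of other cells went the other way, from 3858 to 701 CPM and from 8637 to 962 CPM, and their part in the order was not tested.

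Some of the 79 cells were low in Hbb-bt. At a limit of 15% of adult beta UMIs, chosen after the values were seen, 5 of 28 and 5 of 51 of the 79 cells lay below it. In replicate 2 these 5 cells had 13263 to 54697 CPM of the 9 red cell lists, and the 46 others 83987 to 297887 CPM, without overlap. In replicate 1 the ranges overlapped, at 51007 to 166667 CPM against 72306 to 206973 CPM, with medians of 78192 and 147892 CPM. The 5 cells of replicate 2 were also shallow, at 3116 to 4755 UMIs against a median of 11581 over the 51 cells, and 3 of them had 20.8, 27.1 and 48.2% globin against a median of 85.0%. Their mitochondrial shares ran from 0.463 to 13.4% of UMIs, against a median of 0.727%. In replicate 1 the 5 cells had 3102 to 6128 UMIs against a median of 7136 over the 28 cells. The part of depth, globin share and mitochondrial share in the low levels was not tested. Over the remaining cells together, Hbb-bt gave 16.1% and 11.1% of adult beta UMIs. Over all of the 79 cells, Spearman's rho of the Hbb-bt share with the level of the 9 lists was 0.35 over 28 cells and 0.39 over 51 cells, as a description of cells that share a library and depth.

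**Figure D5:**
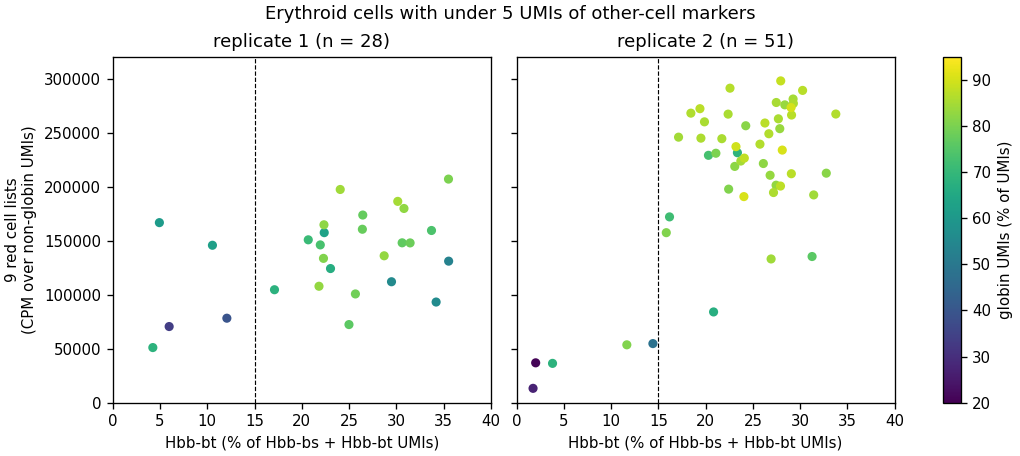
Level of the 9 red cell lists (CPM over non-globin UMIs) against the share of Hbb-bt among adult beta globin UMIs (percent) in the 79 cells; each point is 1 cell, colour is its globin share and the dashed line is 15%. In replicate 2 the 5 cells left of the line lie at 54697 CPM or below and the others at 83987 CPM or above, while in replicate 1 both sides overlap.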

How the data were processed

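The authors deposited raw UMI counts per gene and barcode for 2 libraries of 3' single-cell RNA. The file headers name Cell Ranger 4, while the submitters' processing notes name Cell Ranger 6.0.1 and build mm10, so the version is uncertain. The members and gene lists (21 lists, 215 of 216 genes found) were chosen with earlier results of these data known. Both matrices hold all barcodes. Cells needed 3000 UMIs, 500 genes and at most 20% mitochondrial UMIs over 13 genes. No doublet was removed, and the highest Scrublet scores (scanpy 1.11.5; 0.8% per 1000 cells) were left out as an alternative. Counts were summed per library and kind of cell (erythroid, 5 to 20% globin, C1q-high, remaining). The 8 sums entered 1 fit of edgeR 4.0.16 (R 4.3.3) without globin genes, with TMM, filterByExpr and the library as a block, which left 3 residual degrees of freedom, and C1qa, C1qb and C1qc were not tested against C1q-high cells. Quasi-likelihood F tests were two-sided, with Benjamini-Hochberg adjustment over all tested genes and a threshold of 0.05. The kinds compared share their library, which is where the pairing comes from. Testing was checked on simulated data. DESeq2 1.42.0 was an alternative. Named genes are the 7 globins, the 3 with the highest mean CPM in each red cell list, and, past the threshold against the remaining cells with at least 20 UMIs in each library, the 12 largest increases, up to 8 largest decreases and the 5 highest levels, while other members of a described list may be named. Some genes that the rule names are not reported here. The erythroid sums hold 126295 and 213074 non-globin UMIs, so that 3 counts, the limit that a count of 0 allows, are 23.8 and 14.1 CPM. Python 3.11.15 was used.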

Additional observations from a re-analysis of the deposited data

Results flagged for a closer look

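Barcodes that passed 3000 UMIs and 20% globin but had under 500 genes were left out of every comparison, although their globin was far above that of free RNA. There were 213 of 249 such globin-rich barcodes in replicate 1 (85.5%) and 155 of 225 in replicate 2 (68.9%). Their median globin share was 83.8% and 88.3%, at medians of 320 and 321 genes. Those of them with at most 20% mitochondrial UMIs, 210 and 154, also held red cell genes: Alas2 stood at 8209 and 15002 CPM over non-globin UMIs and Mkrn1 at 17477 and 22012 CPM. Hbb-bt gave 21.4% and 18.1% of their adult beta globin UMIs, against 25.1% and 23.8% in the erythroid cells. The minimum number of genes therefore sets how many red cells are counted, and with at least 200 genes the erythroid cells were 240 and 221. These were 4.19% and 5.07% of the cells of their library.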

How the results depend on the processing

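The mean share of erythroid cells was 1.14% and became 4.63% with at least 200 genes, an alternative chosen after seeing the data, as were the sets without marker-carrying cells and with at most 1000 genes. The mean level of the 9 red cell lists, 87920.1 CPM, became 44280.1 CPM at 10% globin, 160766 CPM at 50%, 124435 CPM with at least 200 genes, 172844 CPM in the 79 cells, 176625 CPM with at most 1000 genes and 28576 CPM over all UMIs. Leaving out 1 library gave 66859 to 108981 CPM, and 66.0 to 68.2% beta-type globin. Calls against the remaining cells, 384, became 830 with DESeq2's Wald test, 1001 without a filter, 793 with only the kinds compared, 245 at 10% globin, 626 at 50%, 632 with at least 200 genes, 859 in the 79 cells and 790 with at most 1000 genes. The share of calls that were higher, 87.8%, became 62.7% without a filter, 62.0% with only the kinds compared, 68.2% at 50% globin, 55.5% in the 79 cells and 55.3% with at most 1000 genes. Calls against C1q-high cells, 1940 (52.6% higher), became 1228 with only the kinds compared, and the higher share became 62.8% with DESeq2's Wald test, 40.3% at 50% globin, 36.4% in the 79 cells and 35.2% with at most 1000 genes. Against cells with 5 to 20% globin, 87.4% of calls were higher, and 66.5% without a filter, 55.2% at 50% globin, 43.6% in the 79 cells and 43.2% with at most 1000 genes. Calls against cells with 5 to 20% globin, 254, became 575 with DESeq2, 659 without a filter, 12 at 10% globin, 725 at 50%, 623 with at least 200 genes, 1109 in the 79 cells and 993 with at most 1000 genes. The cause of these moves was not tested. Without the replicate block the 3 counts were 387, 2011 and 249. Leaving out 1 library leaves no residual degrees of freedom and so no count of calls.

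Signs turned for genes that had not passed the threshold: Socs2 was 0.0273 at 30% globin, Cd34 -13.62 in the 79 cells and -13.62 with at most 1000 genes, where it had 0 UMIs and the size has no meaning, Spi1 -9.93 at 50% globin, likewise at 0 UMIs, and Gata2, -0.29, was 0.81 without replicate 2 and -0.62 without replicate 1. Of the named genes' alternatives 582 kept their direction and, where a p-value existed, their side of the threshold, 13 lost the call and 11 gained it. With 1 library left out there was no p-value, and only the direction was compared. Depth limits the sparse genes most: 3 counts in all erythroid cells are 23.8 and 14.1 CPM.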

Other observations

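Globin-rich barcodes continued below the minimum of UMIs. Between 1000 and 3000 UMIs, 287 barcodes in replicate 1 and 112 in replicate 2 had at least 20% globin UMIs. The erythroid cells of the rule held 10.1% and 30.2% of all globin UMIs of their library.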
